A study of Mus musculus with 8 samples.

Results

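The genes described here encode solute carriers (SLC), the membrane proteins that move amino acids, metals, sugars, nucleosides, ions and vitamins into and out of cells and organelles. The 149 genes were the protein-coding genes with a numbered SLC symbol (Slc, a family number, the letter a and a member number) and a mean of at least 50 normalized counts over the 8 samples. They belonged to 43 SLC families and were taken from 348 genes of that symbol form among 55359 genes measured. Of the 348 genes, 205 reached a mean of 10 and 160 a mean of 50, and 11 of the 160 were left out by name (Slc2a1, Slc2a3, Slc2a6, Slc16a1, Slc16a3, Slc7a2, Slc7a11, Slc25a1, Slc40a1, Slc11a1 and Slc11a2). The genes were thus chosen by their mean level, so these levels are a description. The lowest means inside the limit were 50.8 (Slc18a1), 50.8 (Slc41a3), 51.5 (Slc16a13), 51.8 (Slc25a15) and 52.6 (Slc2a9) normalized counts, and the highest outside it were 49.6 (Slc25a23), 48.4 (Slc5a6), 47.6 (Slc9a5), 46.6 (Slc25a43) and 43.6 (Slc46a1). A pair of the 149 carry the symbol form but encode no transporter, Slc4a1ap (an adaptor protein gene) and Slc7a6os (named for the strand opposite Slc7a6).

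All samples were bone marrow-derived macrophages (Mϕ, BMDMs) of male and female adult C57BL/6 wildtype mice, grown for 7 days in M-CSF and GM-CSF at 20 ng/mL each. Each of the 4 groups held 2 samples: naïve Mϕ (Ctrl), such cells after 6 h of LPS at 100 ng/mL together with IFNγ at 100 U/mL (LPS), Mϕ that had taken up apoptotic cells for 16 h (Eff), and such efferocytic Mϕ given the same LPS/IFNγ stimulus (LPSEff). The apoptotic cells were NIH-3T3 CA cells, a mouse fibroblast line carrying an activatable caspase-8. To start their apoptosis, these fibroblasts received 10 nM dimerizer 6 h ahead of being added at 5 cells per Mϕ. By that time the paper counted most of them as neither apoptotic nor necrotic. The dimerizer stayed at 10 nM during the 16 h of co-culture, while none is listed for Ctrl and LPS. Effects of efferocytosis and of dimerizer on the Mϕ therefore cannot be told apart here. CD45+ cells were then purified and their total RNA was sequenced. The labels did not say whether samples of a group came from separate animals or cultures, so p-values measure only the spread between these samples.

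As background, carriers either equilibrate a solute or drive it against its gradient with sodium, protons or an exchanged solute, and most families are named by sequence rather than by substrate. In Mϕ they set the supply of amino acids, nucleosides and vitamins, they load and empty the lysosome in which engulfed cells are digested, and they partition zinc, copper and iron, which microbes also need. The SLC25 family sits in the inner mitochondrial membrane, most SLC30 proteins take zinc out of the cytosol, and SLC39 proteins bring it in.

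The sequence before a listed RefSeq start is printed for the genes with the 3 largest rises and the largest fall under LPS/IFNγ, as the 250 bases before the first listed RefSeq transcript start (GRCm38.p6, gene strand, 5′ to 3′). Capitals mark matches to 3 inflammatory motif patterns searched on both strands: a κB-like pattern GGGNNNTTC, a GAS pattern TTCNNNGAA and an ISRE-like pattern GAAANNGAA.
Slc1a2 (chr2:102706188-102706437, plus strand): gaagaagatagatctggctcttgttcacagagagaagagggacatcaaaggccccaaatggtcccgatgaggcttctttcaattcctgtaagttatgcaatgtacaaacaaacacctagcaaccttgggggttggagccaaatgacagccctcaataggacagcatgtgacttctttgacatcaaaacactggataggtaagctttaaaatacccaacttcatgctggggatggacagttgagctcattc
Slc26a4 (chr12:31559985-31560234, minus strand): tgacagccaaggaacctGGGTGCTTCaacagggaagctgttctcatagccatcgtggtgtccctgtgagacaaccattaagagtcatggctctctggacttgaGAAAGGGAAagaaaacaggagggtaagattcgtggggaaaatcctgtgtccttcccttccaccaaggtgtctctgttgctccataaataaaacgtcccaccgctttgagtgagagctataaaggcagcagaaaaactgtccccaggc
Slc28a2 (chr2:122426185-122426434, plus strand): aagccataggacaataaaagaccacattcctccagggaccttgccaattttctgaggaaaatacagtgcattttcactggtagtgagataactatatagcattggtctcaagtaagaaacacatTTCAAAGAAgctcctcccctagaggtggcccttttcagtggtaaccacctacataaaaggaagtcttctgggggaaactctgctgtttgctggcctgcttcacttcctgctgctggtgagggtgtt
Slc39a10 (chr1:46925777-46926026, minus strand, first of 2 listed starts): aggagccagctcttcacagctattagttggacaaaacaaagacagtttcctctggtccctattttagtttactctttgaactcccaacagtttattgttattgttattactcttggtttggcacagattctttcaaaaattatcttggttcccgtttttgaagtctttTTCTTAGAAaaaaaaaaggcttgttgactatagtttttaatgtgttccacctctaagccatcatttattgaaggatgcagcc

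The windows were placed in GRCm39 by exact match of their letters. That of Slc1a2 (chr2:102536533-102536782) lay inside the gene, 48209 bases downstream of its most upstream start and before an internal start shared by 2 of the 19 annotated transcripts, so the sequence before the gene's own first start is not shown. That of Slc39a10 (chr1:46964937-46965186) ended 28 bases from the most upstream annotated start and 71616 bases before the start of the canonical transcript. Those of Slc26a4 and Slc28a2 ended 56 and 46 bases from the canonical start. This Slc1a2 window held none of the 3 patterns. Slc26a4 held a κB-like match and an ISRE-like match, and Slc28a2 and Slc39a10 each held a GAS match; a match describes the letters and is not a known binding site. Windows of 300 bases (250 before and 50 after the start) were listed for 112 of the 149 genes and for 27025 genes in all. The κB-like pattern was in 17 of the 112 carrier windows (15.2%) against 14.0% of all windows and 15.7% of those of tested genes; among carriers called in LPS vs Ctrl it was in 3 of 18 that were higher (16.7%) and 3 of 22 that were lower (13.6%). The GAS and ISRE-like patterns were each in 6 of 112 (5.36%), against 8.47% and 8.57% of all windows and 6.79% and 7.52% of those of tested genes. The metal response pattern TGCGCNC was in 31 of 112 (27.7%) and in 15.5% of all windows, but in 26.7% of the windows of tested genes. The E-box CACGTG was in 16 of 112 (14.3%), against 7.24% of all windows and 10.1% of those of tested genes, and the NRF2 pattern TGACNNNGC in 23 of 112 (20.5%), against 12.5% and 15.0%. The second metal response pattern TGCACNC was in 19 of 112 (17.0%), against 12.4% of all windows and 12.7% of those of tested genes, and the ATF4 pattern TGATGNAAT was in 0 of 112, against 0.969% and 0.371%.

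The files held normalized counts, which are read counts divided by a size factor for each sample. Samples held 3481288 (Ctrl replicate 1) to 12020918 (Ctrl replicate 2) reads, so 3 reads, taken as the detection floor, were worth 1.73 to 5.71 normalized counts. All 16 macrophage markers were above 10 normalized counts in every sample and summed to 117389 to 173039. Normalized counts totalled 8470249 to 9489294 in samples given LPS/IFNγ and 6587737 to 6951788 in the others. Scaling all samples to equal totals instead put the median log2 difference of all genes at -0.40 in LPS vs Ctrl and -0.44 in LPSEff vs Eff, against -0.01 and 0.01 as deposited.

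LPS/IFNγ moved carrier genes in both directions in naïve Mϕ. Of the 149 genes, 24 were higher and 29 lower in LPS than in Ctrl by limma on log2(normalized count + 1), with a Benjamini-Hochberg adjusted p under 0.05 over all 16309 genes tested (called from here on). The calls made up 35.6% of the carriers, which includes genes that met the level limit only through the groups where they were high. Over all genes tested 24.0% were called, 12.4% higher and 11.6% lower, and over genes with a mean of at least 50 it was 31.0%. Of the 131 carriers with every group mean at 50 or more 34.4% were called, against 28.2% of all genes of that kind. The median log2 difference was -0.14 over the carriers and -0.01 over all genes tested. With equal totals the split was 17 higher and 62 lower, where 35.2% of all genes tested were called (1420 higher and 4315 lower). Of the calls as deposited, 16 of the 24 rises and 26 of the 29 falls were called under every scaling tried. Fewer carriers were called with any 1 of the 8 libraries left out, and so were fewer of all genes tested. In both, the drop was largest without Ctrl replicate 1, Ctrl replicate 2 or LPS replicate 1. Some rises and some falls stayed called whichever of the 8 libraries was left out.

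**Figure D1:**
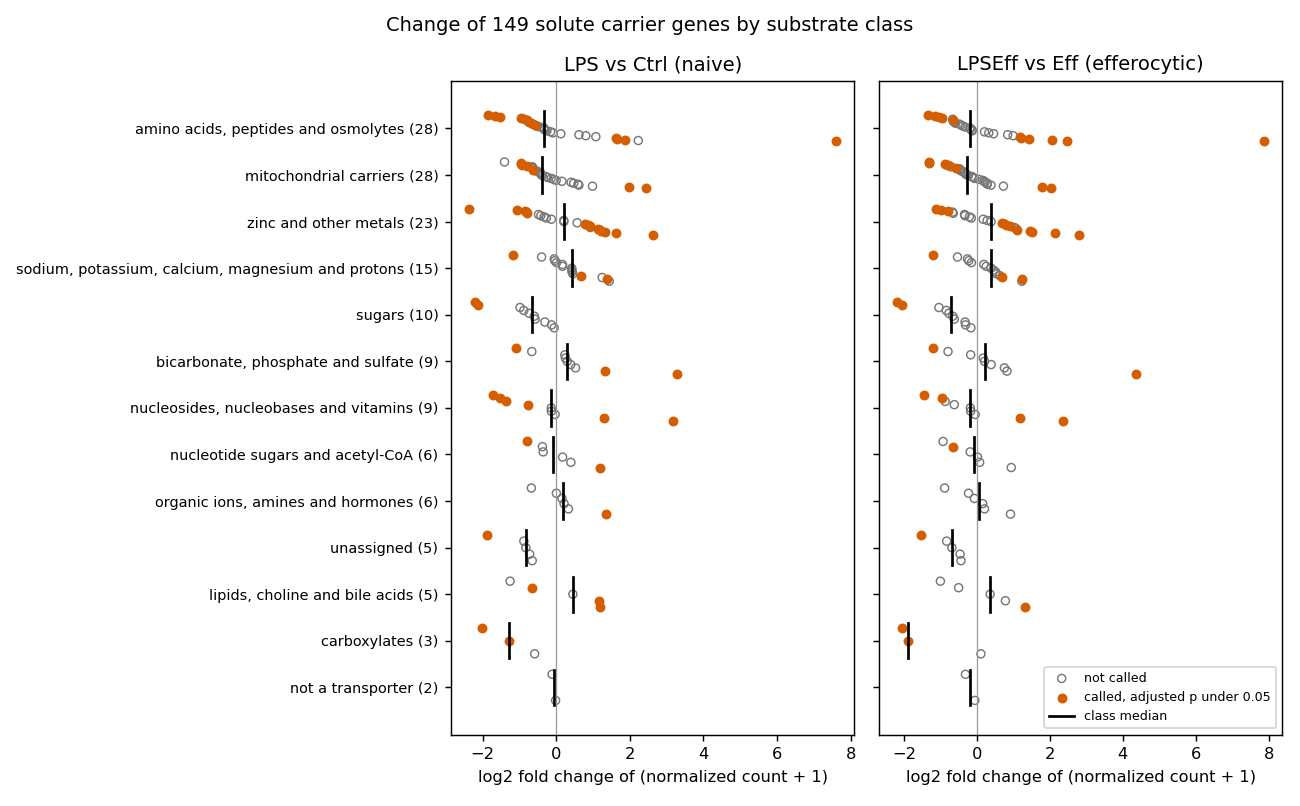
Log2 fold change of (normalized count + 1) on the x axis for each of the 149 carrier genes (points), by substrate class on the y axis (number of genes in brackets), in naïve (left) and efferocytic (right) cells; filled points are called, lines are class medians. All 10 sugar carriers lie at or below 0 in the left panel, while the zinc and other metals class, in which SLC49 genes are placed by family, holds 8 called rises and 4 called falls there.

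Amino acid, peptide and osmolyte carriers were the class with the highest summed count. The 28 genes summed to 29663 and 29555 normalized counts in Ctrl and 30472 and 28634 in Eff, against 40225 and 35406 in LPS and 48994 and 44785 in LPSEff, although 7 of the 28 fell and 4 rose in LPS vs Ctrl (median log2 difference -0.33; with equal totals 14 fell and 4 rose, with a median of -0.73). Normalized counts of all genes also totalled more in stimulated samples, at 8470249 to 9489294, against 6587737 to 6951788 in the others. The class sums therefore do not measure a share of all counts. They also include the large rises of Slc15a3 and Slc3a2 given below. Called genes were 39.3% of the class in LPS vs Ctrl, against 24.0% of all genes tested and 31.0% of those with a mean of at least 50. With equal totals they were 64.3%, against 35.2% of all genes tested. Averaged over the 8 samples, Slc15a3 and Slc3a2 had the highest levels per kilobase of exon of all 149 genes, 1453 and 891.7 normalized counts per kb. In Ctrl alone Slc6a6 (609.9 per kb) was above both (523.8 and 337.4). In Eff alone Slc25a4 (571.6) and Slc6a6 (521.6) were above both (507.5 and 420.6).

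Slc1a2 encodes a sodium-coupled glutamate transporter best known for clearing glutamate in the brain. The gene (ENSMUSG00000005089) lies on chromosome 2, 102488574 to 102621129, in GRCm39. It was at 5.71 and 5.78 normalized counts in Ctrl and 6.13 and 4.23 in Eff, against 1742 and 989 in LPS and 1515 and 1343 in LPSEff. The stimulated and unstimulated samples did not overlap, and the unstimulated values stood for 3 and 10 reads in Ctrl and 7 and 6 in Eff. Slc1a2 thus met the level limit only through the stimulated groups. The ratio of reads was 229 in LPS vs Ctrl (95% counting interval 134 to 431) and 285 in LPSEff vs Eff (166 to 536), counting error only. The log2 fold changes were 7.61 ± 0.32 (SE, n = 2 per group, adjusted p = 9.5e-06, limma) and 7.87 ± 0.32 (adjusted p = 6.66e-06), values that depend on the added 1.

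Slc15a3, a lysosomal carrier of histidine and small peptides including bacterial muramyl peptides, was at 2936 and 2829 in Ctrl and 2890.0 and 2695 in Eff, against 12374 and 9083 in LPS and 17628 and 13543 in LPSEff. Its log2 fold changes were 1.88 ± 0.23 (adjusted p = 0.0009) and 2.47 ± 0.23 (adjusted p = 0.000238). Its relative Slc15a4 was lower in LPS vs Ctrl (-0.79 ± 0.22, adjusted p = 0.0338), a call that was lost without either Ctrl library, LPS replicate 1 or any library of the efferocytic groups (adjusted p up to 0.161).

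Slc3a2 encodes the heavy chain of CD98, which carries a light chain transporter of the SLC7 family to the cell surface. Slc3a2 was at 1354 and 1795 in Ctrl and 1954 and 1971 in Eff, and at 5203 and 4667 in LPS and 7982 and 8359.6 in LPSEff, with log2 fold changes of 1.66 ± 0.19 (adjusted p = 0.000799) and 2.06 ± 0.19 (adjusted p = 0.000285). The light chain genes gave a mixed picture. Slc7a5 (LAT1, large neutral amino acids) was at 439.9 and 529 in Ctrl and 597 and 416 in Eff, against 305 and 489 in LPS and 284 and 382 in LPSEff, and was not called (adjusted p = 0.495 and 0.207). The ratio of Slc3a2 to Slc7a5 per kb was 2.53 and 2.80 in Ctrl and 2.70 and 3.90 in Eff, against 14.0 and 7.85 in LPS and 23.1 and 18.0 in LPSEff. Slc7a8 (LAT2) was at 1061 and 754 in Ctrl and 1264 and 704 in Eff, against 2548 and 1394 in LPS and 3083 and 2112 in LPSEff. It was called in LPSEff vs Eff (1.43 ± 0.38, adjusted p = 0.0329; up to 0.185 without Eff replicate 2 or either LPSEff library, and up to 0.124 with equal totals or quantile scaling) and not in LPS vs Ctrl (1.08 ± 0.38, adjusted p = 0.079). Slc7a6, a light chain that exchanges cationic for neutral amino acids, fell in LPSEff vs Eff (-0.94 ± 0.26, adjusted p = 0.0391; up to 0.203 without any one library of Ctrl, Eff or LPSEff). Slc7a7, of the same kind, was not called in either comparison (log2 0.12 ± 0.38 and 0.46 ± 0.38).

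Genes for several other amino acid carriers fell. Slc43a2 (LAT4, a facilitative carrier of branched-chain amino acids) was at 2089 and 2787 in Ctrl and 2030.3 and 2892 in Eff, and at 565 and 785 in LPS and 962 and 1444 in LPSEff, with log2 fold changes of -1.86 ± 0.29 (adjusted p = 0.00302) and -1.04 ± 0.29 (adjusted p = 0.0397). The second of these was lost without either Ctrl library, either Eff library or LPSEff replicate 1 (adjusted p up to 0.222). Slc1a5 (ASCT2, a glutamine exchanger) was at 724 and 569.6 in Ctrl and 675 and 459 in Eff, against 171 and 242 in LPS and 223 and 213 in LPSEff (-1.66 ± 0.26, adjusted p = 0.00316; -1.35 ± 0.26, adjusted p = 0.00906, and 0.0713 without Eff replicate 1). Slc36a1 (PAT1, a proton-coupled exporter of small amino acids from lysosomes) was at 1005 and 1129 in Ctrl and 1182 and 1325 in Eff, and at 407 and 339 in LPS and 599 and 525 in LPSEff (-1.52 ± 0.18, adjusted p = 0.000965; -1.16 ± 0.18, adjusted p = 0.00383). In all 3 genes every stimulated sample lay under every unstimulated one.

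The aromatic amino acid carrier gene Slc16a10 rose. It was at 430.3 and 269 in Ctrl and 314 and 234 in Eff, against 1397 and 794 in LPS and 696 and 574 in LPSEff. The log2 fold changes were 1.63 ± 0.33 (adjusted p = 0.00942, and 0.0682 without Ctrl replicate 2) and 1.22 ± 0.33 (adjusted p = 0.0352, up to 0.178 without any one library of Eff or LPSEff, and up to 0.150 with equal totals or quantile scaling). Slc38a3, a glutamine carrier, had the second largest estimate of the class (2.23 ± 1.00, adjusted p = 0.151) but its replicates were far apart, at 20.9 and 7.52 in Ctrl and 83.2 and 26.1 in Eff, and at 122 and 32.5 in LPS and 238 and 36.8 in LPSEff. Slc6a6, the taurine carrier and the most abundant osmolyte carrier gene, was at 5547 to 8079 normalized counts in all 8 samples and was not called.

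Of the 9 genes listed as lysosomal carriers, Slc15a3 rose and 4 fell in LPS vs Ctrl (Slc15a4, Slc29a3, Slc36a1 and Slc66a1), with a median log2 difference of -0.76. In LPSEff vs Eff Slc15a3 rose, Slc36a1 fell and the median was -0.44. Called genes were 55.6% and 22.2% of the 9, against 24.0% and 19.7% of all genes tested. The fall of Slc66a1, a lysosomal cationic amino acid exporter (-0.70 ± 0.21, adjusted p = 0.0474), was lost whichever library was left out (up to 0.230). That of Slc29a3, a lysosomal nucleoside carrier (-0.76 ± 0.19, adjusted p = 0.0236), was lost without either Ctrl library or LPS replicate 1 (up to 0.133).

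**Figure D2:**
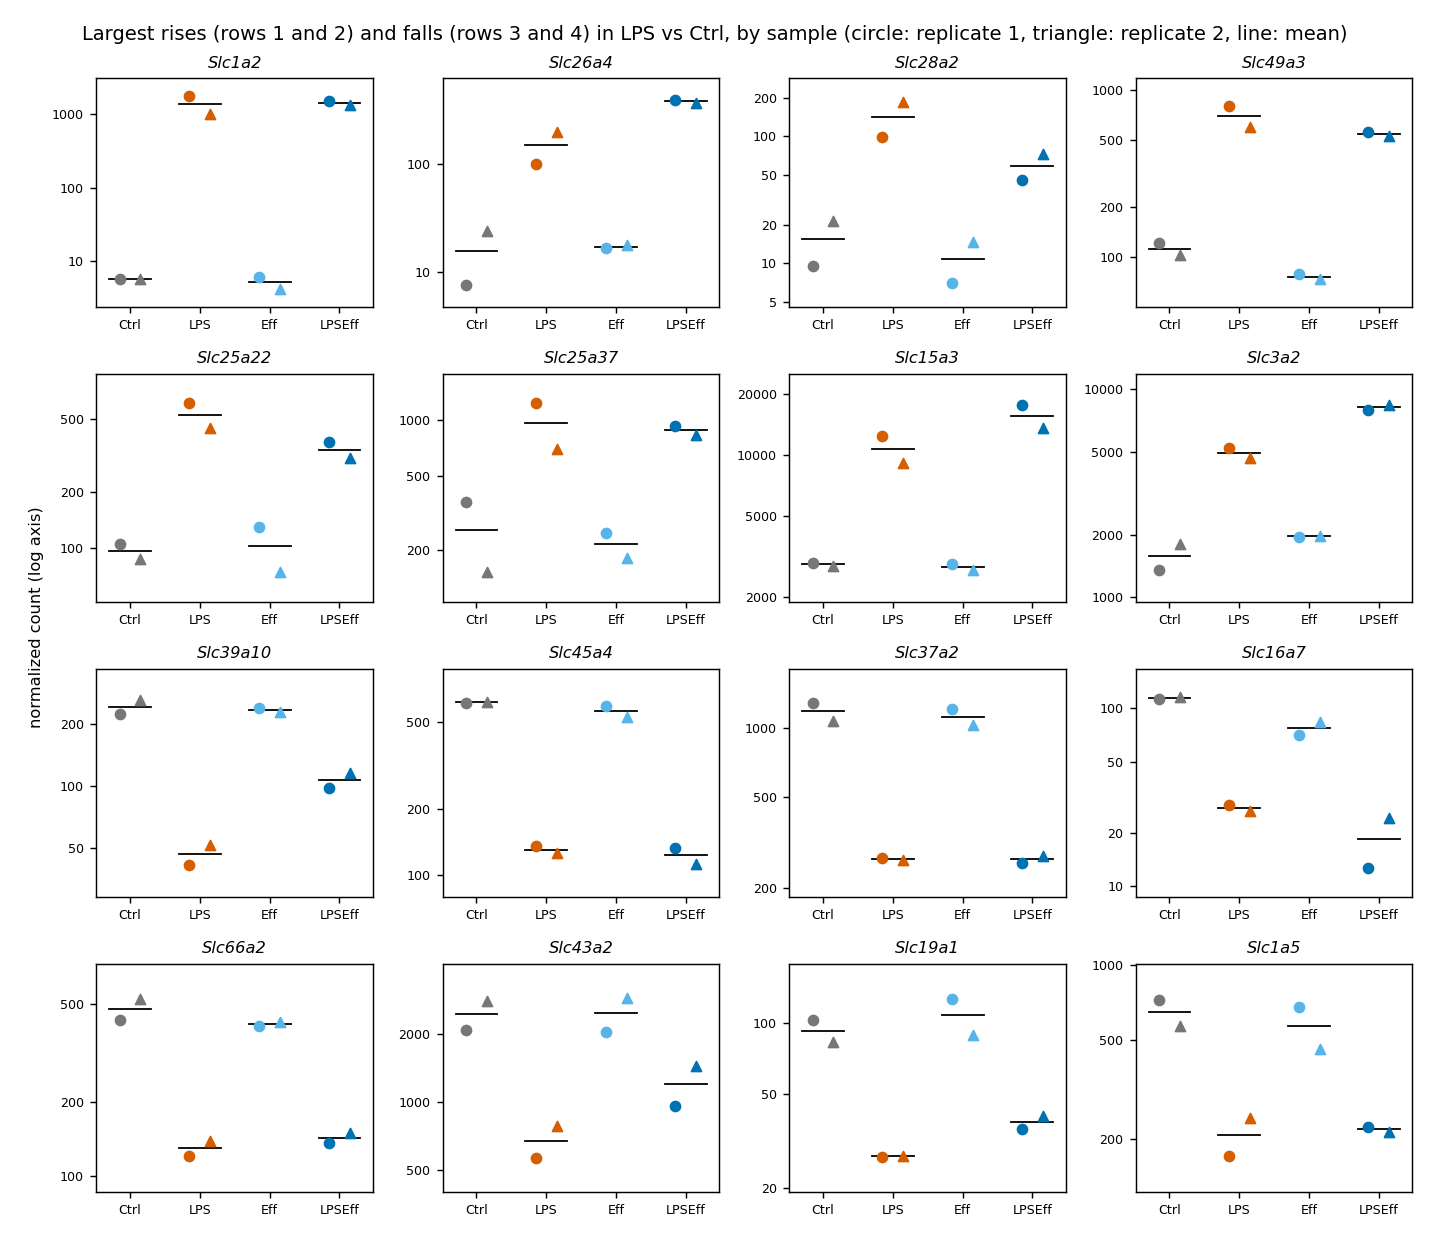
Normalized counts (y axis, log scale) of 16 carrier genes in every sample by group (x axis), with circles for replicate 1, triangles for replicate 2 and lines for the group mean. The upper 8 panels are the 8 largest called rises in LPS vs Ctrl and the lower 8 the 8 largest called falls; Slc1a2 sits under 10 in every unstimulated sample and at 989 or above in every stimulated one.

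Among zinc and other metal carriers, 8 of 23 genes rose and 4 fell in LPS vs Ctrl, and 8 rose and 3 fell in LPSEff vs Eff. That is 52.2% and 47.8% of the class, against 24.0% and 19.7% of all genes tested. The rises in each comparison included Slc49a3 and Slc49a4, placed in the class by family without a settled metal substrate. The median log2 differences were 0.21 and 0.39 as deposited and -0.19 and -0.06 with equal totals, where the calls were 5 higher and 9 lower, and 5 higher and 8 lower. That was 60.9% and 56.5% of the class, against 35.2% and 34.2% of all genes tested. As deposited, the SLC30 genes and the SLC39 genes were each called both ways in LPS vs Ctrl. In LPSEff vs Eff 2 of the 6 SLC30 genes rose and 0 fell (33.3%, against 19.7% of all genes tested). Slc30a1 (ZnT1, which exports zinc across the plasma membrane) was at 211 and 241 in Ctrl and 195 and 256 in Eff, against 614 and 801 in LPS and 884 and 1089 in LPSEff, with log2 fold changes of 1.63 ± 0.23 (adjusted p = 0.00176) and 2.13 ± 0.23 (adjusted p = 0.00055). Of the 5 other SLC30 genes, Slc30a5 (a zinc carrier of the secretory pathway) fell in LPS vs Ctrl (-0.78 ± 0.21, adjusted p = 0.0269; up to 0.150 without either Ctrl library or LPS replicate 1) and Slc30a9 rose in LPSEff vs Eff (0.68 ± 0.20, adjusted p = 0.0448; lost whichever library was left out, up to 0.241, and with equal totals or quantile scaling, up to 0.422).

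Of the 12 SLC39 importer genes, 3 rose and 3 fell in LPS vs Ctrl as deposited (50%, against 24.0% of all genes tested). In LPSEff vs Eff 2 rose and 3 fell (41.7%, against 19.7%). With equal totals none of them rose and 7 fell in LPS vs Ctrl, and 1 rose and 7 fell in LPSEff vs Eff. That was 58.3% and 66.7% of them, against 35.2% and 34.2% of all genes tested. Most calls over all genes were then also lower, 4315 against 1420 higher and 4362 against 1216 higher. Slc39a10 (ZIP10, a plasma membrane zinc importer; ENSMUSG00000025986, chromosome 1, 46845872 to 46964964 in GRCm39) was at 225 and 261 in Ctrl and 238 and 228 in Eff, and at 41.4 and 51.8 in LPS and 98.2 and 115 in LPSEff. This was the largest fall of the 149 genes in LPS vs Ctrl (-2.36 ± 0.23, adjusted p = 0.000323), and it was -1.12 ± 0.23 in LPSEff vs Eff (adjusted p = 0.0107, up to 0.0741 without either Eff library or LPSEff replicate 1). The ratio of Slc30a1 to Slc39a10 per kb was 2.02 and 1.99 in Ctrl and 1.76 and 2.42 in Eff, against 31.9 and 33.3 in LPS and 19.3 and 20.3 in LPSEff. Slc39a14 (ZIP14, which takes up zinc and non-transferrin iron) was at 415 and 556 in Ctrl and 581 and 529 in Eff, and at 788 and 878 in LPS and 1536 and 1500.1 in LPSEff. Its log2 fold changes were 0.79 ± 0.19 (adjusted p = 0.0209; up to 0.136 without Ctrl replicate 1 or LPS replicate 2, and 0.122 with equal totals) and 1.45 ± 0.19 (adjusted p = 0.00164). Slc39a8 (ZIP8) fell from 238 and 270.1 in Ctrl to 113 and 128 in LPS (-1.07 ± 0.21, adjusted p = 0.00876, and 0.0639 without Ctrl replicate 2) and from 203 and 182 in Eff to 87.9 and 105 in LPSEff (-0.99 ± 0.21, adjusted p = 0.0139, up to 0.0963 without either Eff library or LPSEff replicate 1). The SLC39 gene with the highest level, Slc39a7 (zinc release from the endoplasmic reticulum), was at 1002 to 1509 in all samples and was not called; 78.3% of its exon bases are shared with the model Gm20427 on the same strand, so its count is uncertain.

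Both copper carrier genes rose. Slc31a1 (CTR1, the copper importer) was at 449 and 612 in Ctrl and 461 and 528 in Eff, against 1288 and 1324 in LPS and 1329 and 1485 in LPSEff (1.31 ± 0.20, adjusted p = 0.00265; 1.51 ± 0.20, adjusted p = 0.00158). Slc31a2 (CTR2) was at 817 and 808 in Ctrl and 982 and 884 in Eff, and at 1463 and 1583 in LPS and 1724 and 1770.4 in LPSEff (0.90 ± 0.16, adjusted p = 0.00548; 0.91 ± 0.16, adjusted p = 0.00635, and 0.0551 without Eff replicate 2). Slc49a3, an SLC49 family member, had the largest rise of the class, at 122 and 102 in Ctrl and 78.9 and 74.1 in Eff, against 797 and 600.2 in LPS and 559.7 and 525 in LPSEff (2.62 ± 0.21, adjusted p = 0.000144; 2.81 ± 0.21, adjusted p = 9.2e-05). No stimulated sample overlapped an unstimulated one for these 3 genes.

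**Figure D3:**
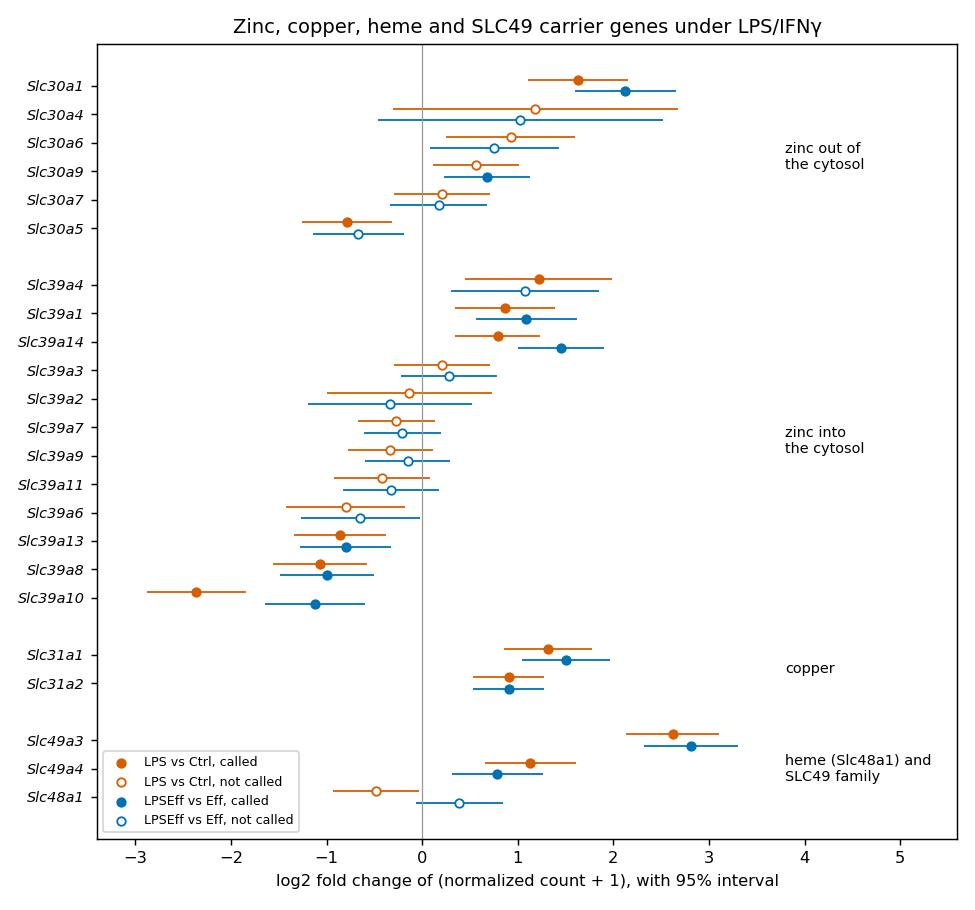
Log2 fold change of (normalized count + 1) with its 95% interval (x axis) for the 23 zinc, copper, heme and SLC49 carrier genes (y axis) in LPS vs Ctrl (orange) and LPSEff vs Eff (blue); filled points are called. Slc30a1 lies above 0 in both comparisons while the other SLC30 genes spread from -0.78 to 1.18 in LPS vs Ctrl, and Slc39a10 shows the widest gap between the 2 comparisons.

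Mitochondrial carriers (28 SLC25 genes) held 2 rises and 5 falls in each comparison, with median log2 differences of -0.39 and -0.26. The calls were 25.0% of the class in each, near the shares of all genes tested (24.0% and 19.7%). The rises were the same pair of genes in both. Slc25a22, a mitochondrial glutamate carrier, was at 105 and 87.3 in Ctrl and 131 and 74.1 in Eff, and at 609 and 445 in LPS and 375 and 307 in LPSEff (2.43 ± 0.31, adjusted p = 0.00112; 1.78 ± 0.31, adjusted p = 0.00545). Slc25a37 (mitoferrin-1, the mitochondrial iron importer) was at 359.9 and 153 in Ctrl and 248 and 181 in Eff, against 1225 and 698 in LPS and 929 and 824 in LPSEff (1.97 ± 0.42, adjusted p = 0.011, up to 0.0584 without Ctrl replicate 2 or LPS replicate 1; 2.04 ± 0.42, adjusted p = 0.011, up to 0.0683 without Eff replicate 2 or LPSEff replicate 1). Its paralog Slc25a28 (mitoferrin-2) stayed between 113 and 141 in all 8 samples, and the ratio of the pair per kb was 3.26 and 1.55 in Ctrl and 2.09 and 1.85 in Eff, against 10.0 and 6.29 in LPS and 8.16 and 7.49 in LPSEff.

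Falls among the mitochondrial carriers included Slc25a13 (an aspartate/glutamate carrier), at 359.9 and 357 in Ctrl and 330.4 and 284 in Eff, against 159 and 212 in LPS and 109 and 139.6 in LPSEff. Its log2 fold changes were -0.96 ± 0.23 (adjusted p = 0.0184, up to 0.0912 without either Ctrl library or LPS replicate 1) and -1.30 ± 0.23 (adjusted p = 0.00589, and 0.0503 without Eff replicate 1). Slc25a24, an ATP-Mg/phosphate carrier, was at 847 and 814 in Ctrl and 1086 and 965 in Eff, and at 491 and 466 in LPS and 352 and 489 in LPSEff (-0.79 ± 0.20, adjusted p = 0.0236, up to 0.112 without any one library of Ctrl or LPS; -1.30 ± 0.20, adjusted p = 0.00332). The ADP/ATP carrier gene Slc25a4, the SLC25 gene with the highest level, was at 1231 to 1869 in all samples and was not called. With equal totals the class held 2 rises in each comparison, and 15 and 14 falls. That was 60.7% and 57.1% of the class, against 35.2% and 34.2% of all genes tested.

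All 10 genes for sugar carriers had estimates below 0 in LPS vs Ctrl, but 2 passed the test, and the median log2 difference was -0.67. Called genes made up 20.0% of the class in each comparison, near the shares of all genes tested (24.0% and 19.7%). The class summed to 3285 and 3426 normalized counts in Ctrl and 3130 and 3608 in Eff, against 1419 and 1796 in LPS and 1349 and 1673 in LPSEff. Slc45a4, of a family of proton-coupled sugar carriers, was at 609 and 619 in Ctrl and 593 and 526 in Eff, against 136 and 126 in LPS and 134 and 113 in LPSEff (-2.22 ± 0.19 and -2.18 ± 0.19, adjusted p = 0.000179 for both). Slc37a2, a phosphate-linked glucose-6-phosphate antiporter abundant in Mϕ, was at 1291 and 1075 in Ctrl and 1211 and 1028 in Eff, and at 272 and 265 in LPS and 259 and 278 in LPSEff (-2.13 ± 0.18, adjusted p = 0.000195; -2.05 ± 0.18, adjusted p = 0.000209). Stimulated and unstimulated samples were far apart for both genes, and both calls stood with each library left out. With equal totals 7 of the 10 genes were called lower in each comparison. In that scaling 35.2% and 34.2% of all genes tested were called, with 1420 and 1216 higher and 4315 and 4362 lower.

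Of the 3 carboxylate carrier genes, all of the SLC16 monocarboxylate family, 2 fell in each comparison (66.7%, against 24.0% and 19.7% of all genes tested). One of them, Slc16a7, met the level limit only through the unstimulated groups, so this share is a description. Slc16a7 (MCT2, a high-affinity pyruvate and lactate carrier) was at 112 and 115 in Ctrl and 70.1 and 83.3 in Eff, against 28.5 and 26.4 in LPS and 12.7 and 24.1 in LPSEff (-2.01 ± 0.35, adjusted p = 0.00485; -2.06 ± 0.35, adjusted p = 0.00506). Slc16a6 (MCT7) was at 303 and 341 in Ctrl and 438 and 301 in Eff, and at 131 and 133 in LPS and 87.1 and 108 in LPSEff (-1.28 ± 0.24, adjusted p = 0.0069, and 0.0508 without Ctrl replicate 2; -1.89 ± 0.24, adjusted p = 0.00129). The third gene of the class, Slc16a13, was at 45.7 and 47.4 in Ctrl and 64.8 and 57.9 in Eff, against 40.1 and 23.4 in LPS and 61.8 and 71.1 in LPSEff, and was not called.

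Nucleoside, nucleobase and vitamin carriers split, with 2 rises and 4 falls among 9 genes in LPS vs Ctrl (66.7%, against 24.0% of all genes tested). Slc28a2 (CNT2, a sodium-coupled purine nucleoside importer, ENSMUSG00000027219, chromosome 2, 122256870 to 122291632 in GRCm39) was at 9.52 and 21.4 in Ctrl and 7.01 and 14.8 in Eff, and at 99.6 and 187 in LPS and 45.1 and 72.3 in LPSEff. Its unstimulated values stood for 5 and 37 reads in Ctrl and 8 and 21 in Eff. Slc28a2 thus met the level limit only through the stimulated groups. Its log2 fold changes were 3.16 ± 0.54 (adjusted p = 0.00459) and 2.37 ± 0.54 (adjusted p = 0.0181, up to 0.107 without Eff replicate 1 or LPSEff replicate 2). The equilibrative nucleoside carrier gene Slc29a1 (ENT1) went the other way, from 394 and 375 in Ctrl to 131 and 168 in LPS (-1.37 ± 0.23, adjusted p = 0.00371) and from 315 and 299.9 in Eff to 135 and 183 in LPSEff (-0.96 ± 0.23, adjusted p = 0.0194, up to 0.129 without either Eff library or LPSEff replicate 1). Slc23a2 (SVCT2, the ascorbate importer) was at 1611 and 1723 in Ctrl and 2216 and 1612 in Eff, against 4672 and 3639 in LPS and 4635 and 3908 in LPSEff (1.31 ± 0.22, adjusted p = 0.00455; 1.17 ± 0.22, adjusted p = 0.00852, up to 0.067 without Eff replicate 2 or LPSEff replicate 1). With quantile scaling Slc23a2 lost its call in LPS vs Ctrl (adjusted p = 0.0786), and with quantile scaling or equal totals that in LPSEff vs Eff (up to 0.181).

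A pair of B vitamin carrier genes of the SLC19 family fell in LPS vs Ctrl, of which Slc19a1 met the level limit only through the unstimulated groups. Slc19a1, the reduced folate carrier, which also imports cyclic dinucleotides, was at 103 and 83.3 in Ctrl and 127 and 88.9 in Eff, and at 27.2 and 27.4 in LPS and 35.6 and 40.6 in LPSEff (-1.73 ± 0.29, adjusted p = 0.00425; -1.46 ± 0.29, adjusted p = 0.0102, up to 0.0872 without Eff replicate 1 or LPSEff replicate 1). Slc19a2, a thiamine importer, was at 255 and 412 in Ctrl and 212 and 312 in Eff, against 105 and 119 in LPS and 125 and 157 in LPSEff (-1.53 ± 0.30, adjusted p = 0.00799, and 0.058 without Ctrl replicate 2; -0.87 ± 0.30, adjusted p = 0.08).

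Among anion carriers, Slc26a4 (pendrin, an exchanger of chloride, iodide and bicarbonate; ENSMUSG00000020651, chromosome 12, 31568169 to 31610244 in GRCm39) had the second largest rise of all 149 genes. It was at 7.62 and 23.7 in Ctrl and 16.6 and 17.6 in Eff, and at 99.6 and 196 in LPS and 386 and 363 in LPSEff. The log2 fold changes were 3.27 ± 0.51 (adjusted p = 0.0029, limma) and 4.37 ± 0.51 (adjusted p = 0.000849). Its unstimulated values stood for 4 and 41 reads in Ctrl and 19 and 25 in Eff. Slc26a4 thus met the level limit only through the stimulated groups, so its rank among the 149 is a description. The next gene, Slc26a6, met that limit only through the unstimulated groups. Slc26a6, an anion exchanger of the same family, fell from 124 and 90.2 in Ctrl to 45.3 and 53.8 in LPS and from 106 and 88.9 in Eff to 40.4 and 43.1 in LPSEff (-1.08 ± 0.28, adjusted p = 0.0237, up to 0.148 without Ctrl replicate 1 or either LPS library; -1.20 ± 0.28, adjusted p = 0.018, up to 0.117 without any one library of Eff or LPSEff). Slc4a7, a sodium bicarbonate importer, was at 434 and 719 in Ctrl and 397 and 661 in Eff, against 1233 and 1611 in LPS and 668 and 1235 in LPSEff, and rose in LPS vs Ctrl (1.33 ± 0.38, adjusted p = 0.0373; up to 0.210 without Ctrl replicate 1 or either LPS library, and 0.0681 with equal totals). Slc4a2 (a chloride bicarbonate exchanger), with the highest mean count of the class before any correction for length, was at 709 to 1049 in all samples and was not called. Over the 9 genes the median log2 differences were 0.30 and 0.21 as deposited, and -0.10 and -0.24 with equal totals.

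Cation carriers (15 genes) held 2 rises and 1 fall in each comparison. That is 20.0% of the class in each, near the shares of all genes tested (24.0% and 19.7%). Slc41a1, a magnesium carrier, was at 139 and 143 in Ctrl and 159 and 236 in Eff, and at 332 and 406 in LPS and 465 and 445 in LPSEff (1.37 ± 0.23, adjusted p = 0.00443; 1.23 ± 0.23, adjusted p = 0.00832, up to 0.0631 without Eff replicate 1 or LPSEff replicate 1). Slc12a7 (KCC4, a potassium chloride cotransporter) was at 373 and 455 in Ctrl and 412 and 421 in Eff, against 171 and 195 in LPS and 173 and 190.4 in LPSEff (-1.17 ± 0.19, adjusted p = 0.00388; -1.19 ± 0.19, adjusted p = 0.00411). Slc41a2, of the SLC41 magnesium carrier family, rose in LPSEff vs Eff, a call lost with equal totals, with quantile scaling, with no filter and without any one library of LPS, Eff or LPSEff (adjusted p up to 0.205 over the libraries left out). Slc24a3, a sodium calcium potassium exchanger, had the largest estimate in LPS vs Ctrl (1.44 ± 0.57, adjusted p = 0.108), at 19.0 and 81.0 in Ctrl and 71.0 and 70.6 in Eff, and at 91.8 and 129 in LPS and 84.7 and 102 in LPSEff, and was not called.

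In the remaining classes, Slc44a1 (CTL1, the choline carrier) was at 722 and 799.8 in Ctrl and 644 and 729 in Eff, against 1424 and 2069 in LPS and 1426 and 2023 in LPSEff (1.17 ± 0.25, adjusted p = 0.0107, up to 0.0698 without Ctrl replicate 1 or LPS replicate 2; 1.31 ± 0.25, adjusted p = 0.00781, up to 0.0582 without Eff replicate 1 or LPSEff replicate 2). Slc33a1, which brings acetyl-CoA into the endoplasmic reticulum, was at 364 and 447 in Ctrl and 262 and 341 in Eff, and at 647 and 1299 in LPS and 529.7 and 624 in LPSEff, and rose in LPS vs Ctrl (1.18 ± 0.32, adjusted p = 0.0317, up to 0.159 without either Ctrl library or LPS replicate 2, and 0.0657 with equal totals). Slc66a2, with no substrate assigned here, fell from 430.3 and 523 in Ctrl to 120.3 and 138 in LPS and from 409 and 423 in Eff to 136 and 149.8 in LPSEff (-1.87 ± 0.20, adjusted p = 0.000477; -1.54 ± 0.20, adjusted p = 0.00134). Slc22a23, an SLC22 member of the organic ion class, was at 118 and 168 in Ctrl and 103 and 134 in Eff, against 291 and 449 in LPS and 238 and 211 in LPSEff, and rose in LPS vs Ctrl (1.35 ± 0.29, adjusted p = 0.0113, up to 0.081 without Ctrl replicate 1 or LPS replicate 2).

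The other genes of these classes that were singled out by size or level changed less clearly. Among them, Slc27a3 met the level limit only through the LPS group. Slc27a1 (FATP1, a fatty acid transport protein) was at 1079.7 and 758 in Ctrl and 2008 and 1136 in Eff, and at 555 and 258 in LPS and 959 and 594 in LPSEff, and was not called in LPS vs Ctrl (-1.26 ± 0.43, adjusted p = 0.0694) or in LPSEff vs Eff (adjusted p = 0.148). Slc27a3, of the same family, was at 55.2 and 51.5 in Ctrl and 19.3 and 36.0 in Eff, against 107 and 142 in LPS and 50.7 and 41.9 in LPSEff, and rose in LPS vs Ctrl (1.20 ± 0.35, adjusted p = 0.0414, up to 0.176 without any one library of Ctrl, LPS or LPSEff, and up to 0.104 with equal totals or no filter). Slc35a4, of the nucleotide sugar carrier family, was at 319.9 and 359 in Ctrl and 335 and 285 in Eff, and at 193 and 195 in LPS and 198 and 194 in LPSEff. It fell in both comparisons (-0.80 ± 0.19, adjusted p = 0.0171, up to 0.102 without any one library of Ctrl or LPS; -0.65 ± 0.19, adjusted p = 0.0431, lost whichever library was left out, up to 0.236). Slc18a1, a vesicular monoamine carrier, was at 60.9 and 81.5 in Ctrl and 49.9 and 63.5 in Eff, against 36.2 and 52.8 in LPS and 24.5 and 36.8 in LPSEff, and Slc66a3, with no substrate assigned, was at 432 and 777 in Ctrl and 377 and 611 in Eff, and at 211 and 468 in LPS and 197 and 369 in LPSEff. Neither was called. Of the pair that encode no transporter, Slc4a1ap stayed at 129.7 to 205 and Slc7a6os at 81.5 to 124 in all samples, and neither was called.

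The stimulus was then compared in efferocytic Mϕ, whose samples are not shared with LPS vs Ctrl. In LPSEff vs Eff 22 carriers rose and 23 fell, 30.2% of the 149, against 19.7% of all genes tested (10.7% higher, 8.95% lower) and 26.0% of genes with a mean of at least 50. Of the 131 carriers with every group mean at 50 or more 29.0% were called, against 23.5% of all genes of that kind. With equal totals the split was 14 higher and 62 lower, where 34.2% of all genes tested were called (1216 higher and 4362 lower). The genes called in both comparisons numbered 38, all in the same direction (18 higher, 20 lower), which is 71.7% of the calls in naïve and 84.4% of those in efferocytic Mϕ. Over all genes tested 2700 were called in both, all in the same direction, which is 69.1% and 84.0% of the calls, so these shares were near those of all genes. The 60 genes called in either comparison had the same sign in both, and 89 were called in neither. Fewer carriers were called with any 1 library of Eff or LPSEff left out, and so were fewer of all genes tested. In both, the drop was smallest without LPSEff replicate 2. Some rises and some falls stayed called with each of the 8 libraries left out.

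**Figure D4:**
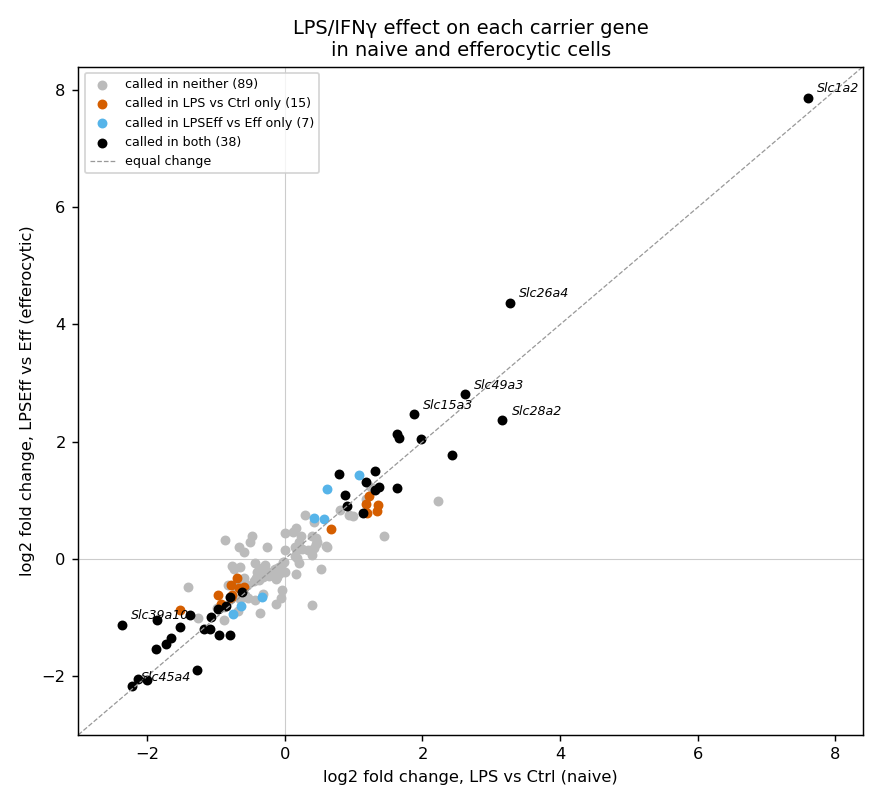
Log2 fold change of each of the 149 genes in naïve (LPS vs Ctrl, x axis) and efferocytic cells (LPSEff vs Eff, y axis); the dashed line marks equal change. The 38 genes called in both comparisons (black) lie in the lower left or upper right, and Slc39a10 lies above the line at -2.36 and -1.12.

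The test of the difference between the LPS/IFNγ effects in efferocytic and naïve Mϕ called 0 of the 149 genes and 0 of all genes tested (0%) by limma, with 5 of the 149 at an unadjusted p under 0.05; edgeR and DESeq2 on the recovered reads also called 0. The smallest p-value was that of Slc39a10, with a log2 difference of 1.24 ± 0.32 (SE, n = 2 per group, adjusted p = 0.9999). The next were Slc26a10 at -1.19 ± 0.36, Slc48a1 at 0.87 ± 0.28, Slc20a2 at 0.87 ± 0.32 and Slc39a14 at 0.66 ± 0.27, each with an adjusted p of 0.9999.

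Efferocytosis alone (Eff vs Ctrl) called 0 of the 149 carriers by limma, with 10 at an unadjusted p under 0.05, and 0 by edgeR and by DESeq2. Over all genes tested 0.251% were called. Under stimulation (LPSEff vs LPS) 2 carriers were called (1.34%), against 0.773% of all genes tested. Averaged over both states, 4 rose and 1 fell (3.36%), against 1.92% of all genes tested and 2.08% of those with a mean of at least 50. These counts depend on the fit. With the replicate number, which the labels share without explanation, as a block they were 5, 23 and 31. In that fit 2.67%, 6.97% and 11.3% of all genes tested were called.

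Slc48a1 (HRG1, which takes heme out of the lysosome) was at 834 and 954 in Ctrl and 1206 and 1416 in Eff, against 685 and 593 in LPS and 1921 and 1523 in LPSEff. All 4 efferocytic samples lay above all 4 naïve ones. The log2 difference was 1.42 ± 0.20 in LPSEff vs LPS (adjusted p = 0.0273), 0.55 ± 0.20 in Eff vs Ctrl (adjusted p = 0.633) and 0.99 ± 0.14 on average (n = 4 per side, limma, adjusted p = 0.0139). The call in LPSEff vs LPS was lost without any one library of Ctrl, LPS or LPSEff (up to 0.242), and that of the average without Ctrl replicate 1, Eff replicate 2 or LPSEff replicate 1 (up to 0.0753).

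Slc20a2 (PiT2, a sodium-coupled phosphate importer) was at 114 and 105 in Ctrl and 156 and 164 in Eff, and at 77.6 and 60.9 in LPS and 201 and 170.1 in LPSEff, also with no overlap. The log2 difference was 1.41 ± 0.23 in LPSEff vs LPS (adjusted p = 0.0406), 0.54 ± 0.23 in Eff vs Ctrl (adjusted p = 0.789) and 0.98 ± 0.16 on average (adjusted p = 0.023). The first call was lost whichever library was left out (up to 0.321) and with equal totals, quantile scaling or edgeR (up to 0.171). That of the average was lost when any library other than LPS replicate 1 was left out (up to 0.116).

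Slc22a4 (OCTN1, an importer of ergothioneine) was at 40.0 and 86.2 in Ctrl and 138 and 166 in Eff, against 55.6 and 77.2 in LPS and 159 and 192 in LPSEff. Its average log2 difference was 1.37 ± 0.26 (adjusted p = 0.0434), a call lost when any library other than Ctrl replicate 2 was left out (up to 0.164). Slc6a8, the creatine importer, was at 853 and 847 in Ctrl and 1546 and 1379 in Eff, and at 501 and 376 in LPS and 1226 and 742 in LPSEff; its average difference was 0.96 ± 0.18 (adjusted p = 0.0443) and the naïve and efferocytic samples overlapped. Slc43a3, a purine nucleobase carrier, was the 1 gene called lower, at 322 and 315 in Ctrl and 190.2 and 175 in Eff, against 317 and 265 in LPS and 172 and 151 in LPSEff (-0.82 ± 0.14, adjusted p = 0.0245). The Slc6a8 call was lost without Ctrl replicate 1 or 2, LPS replicate 2, Eff replicate 1 or 2 or LPSEff replicate 1 (up to 0.160) and with equal totals, quantile scaling, edgeR or only genes with a mean of at least 50 (up to 0.0695), and that of Slc43a3 when any library other than LPS replicate 2 was left out (up to 0.116).

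**Figure D5:**
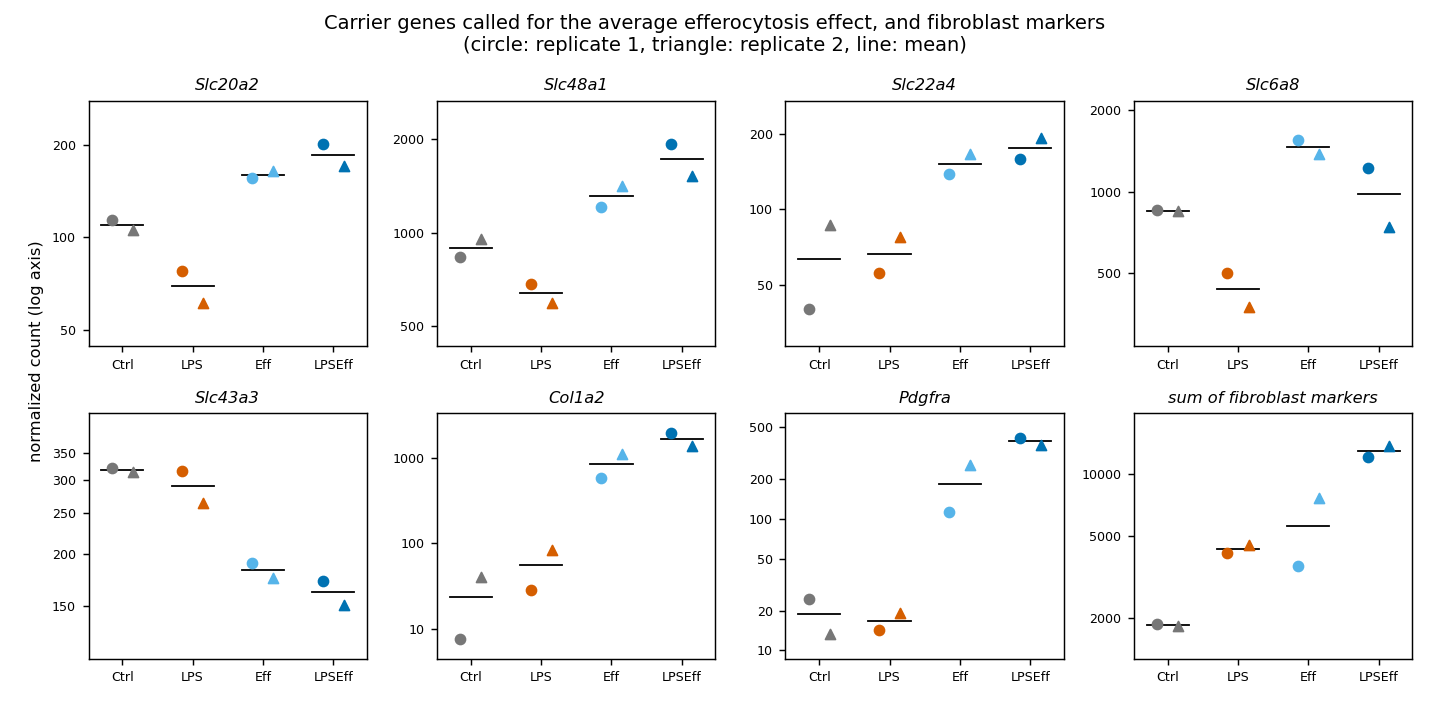
Normalized counts (y axis, log scale) by group (x axis) of the 5 carrier genes called for the average efferocytosis effect, of the fibroblast genes Col1a2 and Pdgfra, and of 26 fibroblast markers summed; circles are replicate 1, triangles replicate 2, lines group means. Slc43a3 is lower in the 4 efferocytic samples, and the 26 markers sum to 12087 or more in LPSEff.

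Fibroblast marker genes moved with the same contrast, and whether their RNA came from engulfed cells was not tested. The 26 fibroblast markers summed to 1819 to 1876 normalized counts in Ctrl, 4116 to 4539 in LPS, 3554 to 7603 in Eff and 12087 to 13673 in LPSEff, and 15 of the 24 tested were called higher for the average efferocytosis effect, 10 in LPSEff vs LPS and 8 in Eff vs Ctrl. Col1a2 was at 7.62 and 39.9 in Ctrl and 582 and 1107 in Eff, and at 28.5 and 83.3 in LPS and 1913 and 1369 in LPSEff. Their part in the carrier results was not tested, and in such bulk samples fewer cells of a type and less RNA per cell cannot be told apart. In the LPS/IFNγ comparisons 4 (LPS vs Ctrl) and 2 (LPSEff vs Eff) of the 24 were called higher and none lower.

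Carrier genes named outside the numbered form were read from a separate list of 57 genes (SLCO organic anion transporters, lettered SLC35 genes and others), of which 40 were tested. Of these, 1 was higher and 13 were lower in each LPS/IFNγ comparison, with median log2 differences of -0.51 and -0.49, which is 35.0% of the list called against 24.0% and 19.7% of all genes tested. With equal totals 1 was higher in each, 21 and 24 were lower, and the medians were -0.91 and -0.93. That was 55% and 62.5% of the list, against 35.2% and 34.2% of all genes tested. The rise was Slco3a1, at 248 and 482 in Ctrl and 218 and 351 in Eff, against 4201 and 3554 in LPS and 5095 and 4175 in LPSEff (3.48 ± 0.34, adjusted p = 0.00036; 4.05 ± 0.34, adjusted p = 0.000159). The 11 genes left out by name held 4 rises and 2 falls in LPS vs Ctrl, and 5 rises and 0 falls in LPSEff vs Eff. That is 54.5% and 45.5% of them, against the same 24.0% and 19.7%.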

How the data were processed

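Total RNA of 8 samples in 4 groups was sequenced after rRNA depletion. The authors trimmed reads with cutadapt, removed rRNA reads with bowtie2, aligned to mm39 with STAR, counted reads per gene with htseq-count at default settings and divided by DESeq2 size factors (versions and annotation are not given in the sources used here). The deposited values are therefore a signal, a normalized count per gene, and not raw reads. Default htseq-count settings drop reads that match several genes or places, so genes with overlapping or near-identical copies are uncertain: 10 of the 149 genes share exon bases with another gene on the same strand (at least 5.1% for Slc39a7, Slc10a3, Slc39a2 and Slc5a3), and Slc25a5 and Slc39a1 have named pseudogenes. One member that the naming rule selects is counted but not reported here by name.

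Genes were named from GENCODE release M39 (GRCm39), where 54749 of 55359 identifiers matched. Whole reads were recovered from the steps of the values: all values (100%) were whole multiples within 0.01. The main test was limma 3.58.1 (R 4.3.3) with trend on log2(normalized count + 1), fitted to the 4 group means over 16309 genes with a mean of at least 10, with 4 residual degrees of freedom and Benjamini-Hochberg adjustment; fold changes of low genes are understated on this scale. With 2 samples per group an exact permutation test cannot go below p = 0.333, so none is given for single genes. edgeR 4.0.16 (quasi-likelihood, TMM) and DESeq2 1.42.0 on the recovered reads, other pseudocounts, filters and scalings, the 2 groups alone, the replicate number as a term and leaving out each sample were alternatives. The test was also run on simulated data with independent samples and the same spread setting for every gene. That setting lacks the correlated replicate differences of these data, so it does not check the calls made here. Levels are compared between genes only per kilobase of exon.

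The 149 genes, their substrate classes (from general knowledge) and the lists were chosen with earlier results of these data known. Values in every sample are given for called genes with the largest changes and no overlap between groups, up to 10 per direction for LPS/IFNγ and 5 for efferocytosis, for the genes of each class with the largest changes and the highest mean count and for the 5 smallest p-values of the difference between LPS/IFNγ effects. The genes described as partners or family members of these were chosen after their values were seen. Lists of lysosomal carriers, other SLC genes, genes left out by name and macrophage, fibroblast and other immune markers were read as counts. The 12 other immune markers summed to 1007 to 2629 normalized counts, and 5 of them were tested, with 1 higher in LPS vs Ctrl and 1 in Eff vs Ctrl. Of the 16 macrophage markers, 4 were higher and 1 lower in LPS vs Ctrl, 4 were higher in LPSEff vs Eff and none was called for efferocytosis.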

Additional observations from a re-analysis of the deposited data

Results flagged for a closer look

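A trio of carrier genes had estimates of opposite sign under LPS/IFNγ in naïve and efferocytic Mϕ. Their stimulated and unstimulated samples did not overlap in either state. With 2 samples against 2 such separation has an exact p no smaller than 0.333. The share of all genes with the same pattern was not counted, so the trio is a description only. Slc48a1 had a log2 difference of -0.48 in LPS vs Ctrl and 0.39 in LPSEff vs Eff, Slc20a2 of -0.67 and 0.21, and Slc26a10, an SLC26 family member, of 0.39 and -0.79. Slc26a10 was at 97.1 and 87.3 normalized counts in Ctrl and 96.4 and 70.6 in Eff, and at 115 and 128 in LPS and 45.1 and 49.5 in LPSEff. None of these 6 differences was called by limma. The difference between the LPS/IFNγ effects itself was tested, with unadjusted p = 0.0138 (Slc48a1), 0.0261 (Slc20a2) and 0.011 (Slc26a10) in limma and an adjusted p of 0.9999 for each, so none passed the correction.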

How the results depend on the processing

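Calls among the 149 carriers in LPS vs Ctrl numbered 53 and ranged from 31 to 49 with 1 library left out; in LPSEff vs Eff they numbered 45, ranged from 22 to 45 with 1 library left out, and were 76 with equal totals. For LPSEff vs LPS, 2 calls became 0 with the groups compared alone, 1 with equal totals, quantile normalization or edgeR, 7 with DESeq2, and 0 to 1 with 1 library left out. The average efferocytosis effect had 5 calls, 3 with a mean of at least 50, 8 with DESeq2, and 0 to 4 with 1 library left out. With the replicate number as a block (replicate block) the calls were 90, 81, 5 (Eff vs Ctrl, against 0), 23 and 31, and 0 for the difference between LPS/IFNγ effects, while 41.2%, 37.0%, 2.67%, 6.97%, 11.3% and 0% of all genes tested were called. Replicates share only a number in the labels; the replicate differences of each pair of groups correlated across genes at 0.404 to 0.595 over all genes and 0.559 to 0.717 over the carriers. In the other settings tried these counts moved by less than 1.5 times, and the cause of the moves was not tested. In LPS vs Ctrl, LPSEff vs Eff and LPSEff vs LPS fewer of all genes tested were also called without any library of the groups compared. Over all genes tested DESeq2 called 287 higher and 81 lower in LPSEff vs LPS, against 119 and 7 by limma. For the average efferocytosis effect it called 436 higher and 208 lower, against 264 and 49. For genes whose values are given in full, 849 gene and setting combinations kept direction and call, 60 kept direction and lost the call, and none reversed. Low depth (3481288 reads in Ctrl replicate 1) limits genes near the floor.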

Other observations

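Several carrier genes differed between replicates 1 and 2 in the same direction in all 4 groups. Slc6a4, the serotonin carrier, was at 137 and 461 normalized counts in Ctrl and 109 and 449 in Eff, and at 173 and 579 in LPS and 126 and 484 in LPSEff, so replicate 2 was the higher in all 4 groups. Slc30a4, a zinc carrier of intracellular vesicles, gave 324 and 742, 229.6 and 567, 676 and 1839, and 494 and 1100.3 in the same order of groups, and Slc46a3 gave 103 and 296, 41.2 and 156, 36.2 and 262, and 35.6 and 97.7. Slc38a3 had the opposite order of replicates, with 20.9 and 7.52, 83.2 and 26.1, 122 and 32.5, and 238 and 36.8. These 4 genes were chosen after their values were seen, and none was called in LPS vs Ctrl or LPSEff vs Eff. The share of carriers or of all genes with a shared order of replicates was not counted. Replicate differences also correlated between groups over all genes (0.404 to 0.595), so the pattern is not particular to carriers.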
